A study of Mus musculus with 2 samples.

Results

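Mucus of the small intestine is a gel of secreted glycoproteins that goblet cells store in granules and release into the lumen. 8 goblet mucus genes were read here in single-cell RNA profiles of jejunal crypts: Muc2, Fcgbp, Clca1, Zg16, Tff3, Agr2, Spink4 and Muc13. They were chosen by name and by their known part in mucus, not by their measured values, though earlier results of these data were known. They are 8 of the 27998 genes in the count matrices. Each was read in the 10 cell types that the authors annotated, in each library, with goblet progenitors kept apart from mature goblet cells.

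The samples were 2 libraries, replicate 1 and replicate 2, each from the jejunum of 1 male mouse of 12 months with a miR-375 knockout (375KO). The labels give the strain as C57BL6/2J, and the deletion of the microRNA miR-375 was carried through the whole body, made by CRISPR/Cas9 in hybrid embryos and then crossed to B6 albino mice. Both libraries belong to this single group, and wild-type libraries were not analysed here, so every comparison is between cell types of 375KO mice and none measures an effect of miR-375. The authors kept 2082 cells with 44017234 UMIs in replicate 1 and 1193 cells with 22163354 UMIs in replicate 2, and the libraries shared 0 cell barcodes. A UMI (unique molecular identifier) stands for 1 captured RNA molecule, read at its 3′ end, and levels are given as CPM, the UMIs of a gene per 1000000 UMIs of a cell type.

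Muc2 is the gel-forming mucin whose long, densely O-glycosylated chains are made in the endoplasmic reticulum and Golgi and expand on release. Fcgbp and Zg16 are secreted with it; Zg16 is a lectin-like protein that binds bacterial cell walls, and Clca1 is a metalloprotease that processes the mucus. Tff3 is a trefoil peptide of epithelial repair, Agr2 is a protein disulfide isomerase needed to fold Muc2, and Spink4 belongs to a family of secreted protease inhibitors. Muc13 is different in kind, a transmembrane mucin of the apical surface.

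All 8 genes are protein coding. In GENCODE M21, on the mm10 build that the files use, Muc2 (ENSMUSG00000025515.15) lies at chr7:141690340-141754693, Fcgbp at chr7:28071236-28120862 and Zg16 at chr7:127050156-127087328. Clca1, whose older name is gob-5, lies at chr3:145003817-145032776, Tff3 at chr17:31125306-31129646 and Agr2 at chr12:35992907-36004087. Spink4 lies at chr4:40920052-40931395 and Muc13 at chr16:33794037-33819934. The libraries read the 3′ ends of transcripts, so transcript forms were not told apart.

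Promoter sequence was at hand for 4 of the 8 genes, namely Muc2, Fcgbp, Agr2 and Muc13, from RefSeq on GRCm38.p6, each from 250 bases before to 50 bases after a start site. They are shown because 3 of these genes are secreted goblet products and Muc13 is a mucin of the whole epithelium. Capitals mark matches, on either strand, to TATAAA (the TATA box), CANCTG (the E-box, the class of site that Atoh1 binds), TGTTTNC (forkhead factors such as Foxa3) and TTTATG (Cdx factors). The windows are chr7:141690090-141690389 for Muc2, chr7:28070986-28071285 for Fcgbp, chr12:35992675-35992974 for Agr2 and chr16:33793787-33794086 for Muc13, all on the + strand.
Muc2: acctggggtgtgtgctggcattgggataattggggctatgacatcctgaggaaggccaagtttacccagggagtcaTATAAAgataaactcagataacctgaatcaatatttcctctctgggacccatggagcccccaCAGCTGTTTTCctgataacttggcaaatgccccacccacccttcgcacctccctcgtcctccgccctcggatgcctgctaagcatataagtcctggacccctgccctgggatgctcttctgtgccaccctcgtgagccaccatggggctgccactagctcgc
Fcgbp: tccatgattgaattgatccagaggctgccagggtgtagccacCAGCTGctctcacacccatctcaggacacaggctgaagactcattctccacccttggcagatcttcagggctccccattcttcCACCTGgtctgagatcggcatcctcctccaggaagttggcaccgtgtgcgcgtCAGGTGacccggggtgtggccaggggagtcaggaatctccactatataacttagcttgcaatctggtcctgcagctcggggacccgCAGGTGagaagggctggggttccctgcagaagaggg
Agr2: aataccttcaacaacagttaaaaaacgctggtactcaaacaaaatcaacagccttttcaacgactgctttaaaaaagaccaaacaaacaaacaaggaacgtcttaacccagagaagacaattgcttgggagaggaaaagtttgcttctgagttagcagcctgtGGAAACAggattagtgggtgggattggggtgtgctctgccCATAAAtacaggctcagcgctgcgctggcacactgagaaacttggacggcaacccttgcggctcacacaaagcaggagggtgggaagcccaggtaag
Muc13: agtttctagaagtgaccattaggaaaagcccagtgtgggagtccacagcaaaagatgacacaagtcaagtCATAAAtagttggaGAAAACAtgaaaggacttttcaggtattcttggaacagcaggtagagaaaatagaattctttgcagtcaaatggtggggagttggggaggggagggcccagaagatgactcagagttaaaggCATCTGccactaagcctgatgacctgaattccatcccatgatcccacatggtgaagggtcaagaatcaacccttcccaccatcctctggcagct
The Fcgbp window held 4 E-box matches, Muc2 and Muc13 held 1 each, and Agr2 held 0. Forkhead matches stood once each in Muc2, Agr2 and Muc13, and in Muc2 the match overlaps the end of the E-box. Agr2 and Muc13 each held 1 Cdx match. The window of a further Muc13 start site, chr16:33794239-33794538, held 1 E-box match. The only TATAAA match was in Muc2, beginning 174 bases before the start site. Of 32851 promoters of this length, 51.4% hold an E-box match, 20.5% a forkhead match, 13.6% a TATAAA match and 11.8% a Cdx match, so each of these motifs is common in windows of this size.

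Before the results, the annotation was checked with 8 goblet markers outside the set (Spdef, Ern2, Creb3l1, Galnt12, Capn8, Bcas1, Sytl2 and Tpsg1). 8 of 8 were highest in goblet cells in both libraries. Their summed level was 1825 and 1675 CPM in the goblet cells of replicates 1 and 2, against 699 and 695 CPM in goblet progenitors. Markers of Paneth, enterocyte, enteroendocrine, tuft and lymphocyte types were likewise highest in their own type, 6 of 6 for each, while among stem markers Ascl2, among TA (transit-amplifying) markers Pcna, Mcm4 and Tyms, and among secretory progenitor markers Atoh1 and Dll4 were not. Cell types had been named by the authors from the RNA of these very cells, so a test between types measures the distance between classes drawn from the same values. SoupX, a program that subtracts free RNA, is named in their methods without saying which deposited matrix it concerns. A member at exactly 0 UMIs occurred in 3 of the 80 combinations of gene and type in replicate 1 and in 17 of the 80 in replicate 2, so a 0 was not read as absence and values far from the goblet line were not ranked.

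Goblet cells held the highest CPM of each of the 7 secreted genes in both libraries, with goblet progenitors next in the mean of the libraries. The 7 genes together took 21.1% and 19.9% of all goblet UMIs in replicates 1 and 2. In goblet progenitors this share was 5.09% and 6.60%, in secretory progenitors 1.58% and 2.53%, and in Paneth cells 0.978% and 1.02%. In stem cells, TA cells and enterocytes, the absorptive cells, it ranged from 0.0167% to 0.0614%. Goblet cells numbered 277 and 138 in the libraries and goblet progenitors 162 and 84. Since goblet classes were defined with goblet genes, their level against all the rest together is a description and carries no test. Tests between single types, given below, measure only how far the annotated classes stand apart.

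**Figure D1:**
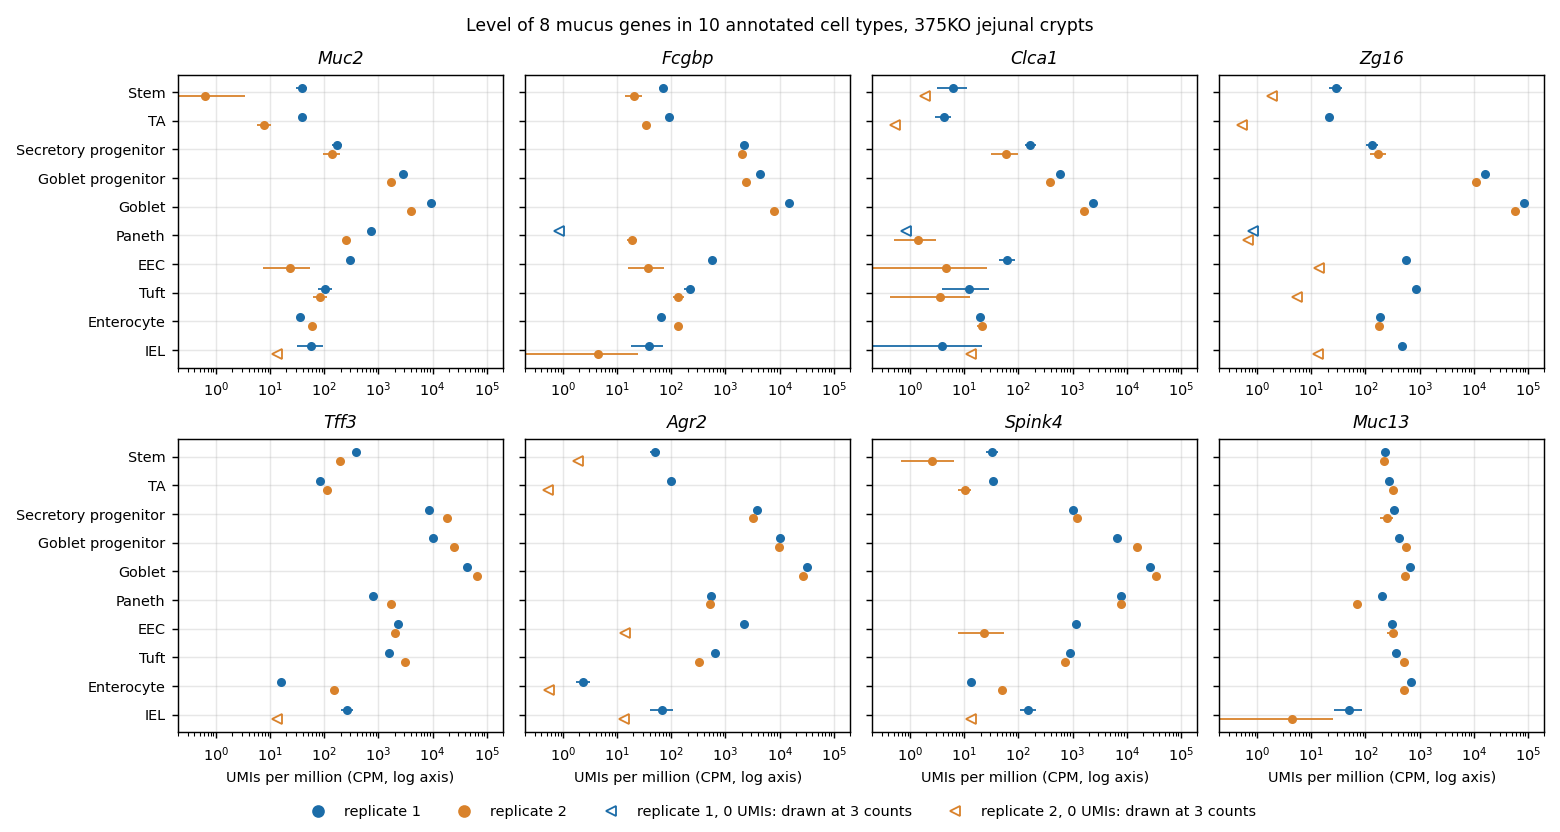
Level of each gene in the 10 annotated cell types, as CPM on a log axis, with a point per library and its exact Poisson 95% interval. Open triangles stand at 3 counts where a library held 0 UMIs. The secreted genes peak in goblet cells in both libraries, while Muc13 lies between 219 and 693 CPM in every epithelial type but Paneth cells. These levels are not TMM-scaled, and after TMM scaling Spink4 and Muc13 were highest in Paneth cells among the epithelial types in both libraries.

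Zg16 was the most abundant member in the goblet cells of replicate 1 and Tff3 in those of replicate 2. CPM of 3′ UMIs counts captured molecules and does not depend on transcript length. Capture may still differ between genes, so the order of genes given here is one of captured UMIs. Zg16 stood at 83474 and 57451 CPM in goblet cells (mean 70462 ± 18401, SD, n = 2 libraries), and at 16372 and 10926 CPM in goblet progenitors. Tff3 stood at 42544 and 67227 CPM in goblet cells and at 9967 and 25305 CPM in goblet progenitors. The 2 libraries thus put these genes in opposite order.

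Agr2 and Spink4 followed. Agr2 was the steadiest member between mice, at 31527 and 26860 CPM in goblet cells and 10184 and 9903 CPM in goblet progenitors. Spink4 was at 26703 and 34299 CPM in goblet cells, whereas in goblet progenitors it differed between libraries, at 6519 and 15408 CPM. Paneth markers moved with it there: the summed level of 6 such markers (Lyz1, Defa24, Defa22, Mmp7, Itln1 and Ang4) was 259 and 2221 CPM in the goblet progenitors of replicates 1 and 2, with Defa22 at 0 in both, and 5768 and 5451 CPM in goblet cells, against 549443 and 455053 CPM in Paneth cells. Defa24 alone went from 7.82 to 1569 CPM between the libraries, and the other 5 markers summed to 251 and 653 CPM. Their part in the Spink4 values was not tested.

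The mucin itself and its partners were lower in CPM. Fcgbp stood at 14978 and 7701 CPM in goblet cells and at 4393 and 2406 CPM in goblet progenitors. Muc2 stood at 9526 and 4044 CPM (mean 6785 ± 3877, SD, n = 2) in goblet cells and at 2893 and 1694 CPM in goblet progenitors. Clca1 was the lowest of the secreted genes, at 2428 and 1608 CPM in goblet cells and 598 and 376 CPM in goblet progenitors. For 7 of the 8 genes both goblet values lay above both progenitor values, as they did for 10.9% of the 11013 genes tested; the exception was Muc13, at 657 and 533 CPM in goblet cells and 409 and 566 CPM in goblet progenitors.

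The libraries differed in a gene-specific way that both goblet classes shared. Replicate 1 was higher for Muc2 (2.36 times replicate 2 in goblet cells and 1.71 times in goblet progenitors), for Fcgbp (1.95 and 1.83 times), for Clca1 (1.51 and 1.59 times) and for Zg16 (1.45 and 1.50 times). Replicate 2 was higher for Tff3 (1.58 and 2.54 times replicate 1) and Spink4 (1.28 and 2.36 times). Agr2 differed least, with replicate 1 at 1.17 and 1.03 times replicate 2. Muc13 went opposite ways, with replicate 1 at 1.23 times replicate 2 in goblet cells and 0.724 times in goblet progenitors. Other types shared some of these directions. In Paneth cells replicate 1 was at 2.9 times replicate 2 for Muc2 and 0.467 times for Tff3, but at 1.002 times for Spink4. In secretory progenitors it was at 0.455 times for Tff3, but at 0.761 times for Zg16, against the goblet direction. Each library is 1 mouse, so these ratios carry no test, and mouse, library preparation and the removal of free RNA cannot be told apart.

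**Figure D2:**
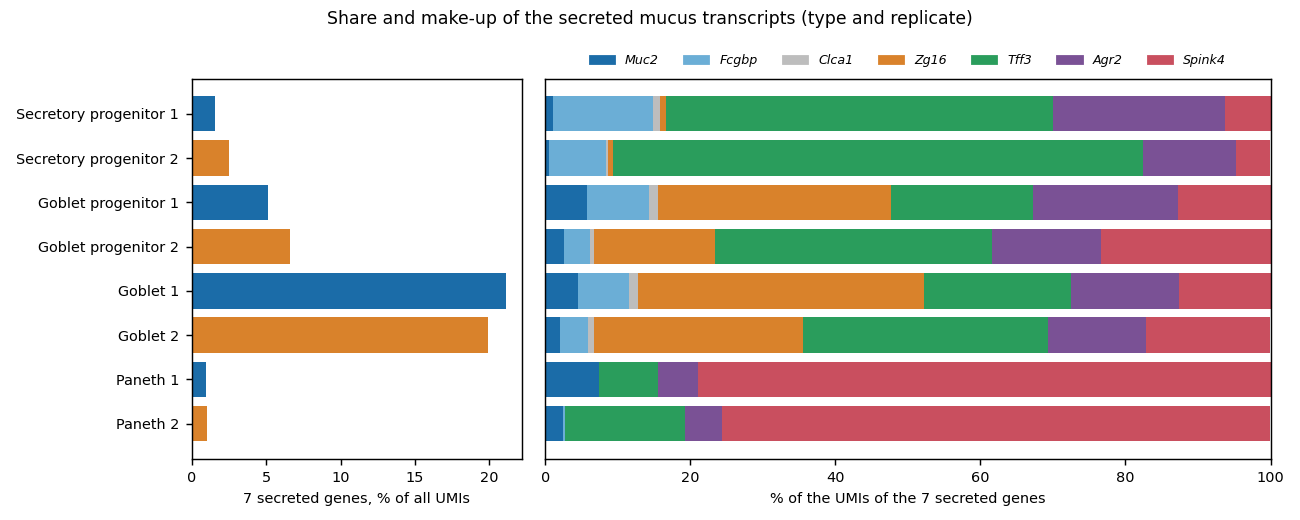
Left, the 7 secreted genes as a percent of all UMIs of a cell type in replicate 1 (blue) and replicate 2 (orange), and right, how those UMIs divide among the 7 genes. Zg16 takes 39.5% and 28.8% of the secreted UMIs in goblet cells but 0.838% and 0.688% in secretory progenitors, and Spink4 takes 79.0% and 75.7% in Paneth cells.

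The mixture of secreted transcripts in secretory progenitors held little Zg16 and Muc2. In secretory progenitors, Tff3 made up 53.3% and 73.1% of the secreted UMIs, Agr2 23.7% and 12.8%, and Fcgbp 13.7% and 7.83%, while Zg16 made up 0.838% and 0.688% and Muc2 1.10% and 0.547%. In goblet progenitors Zg16 made up 32.1% and 16.6% and Muc2 5.68% and 2.57%. In mature goblet cells Zg16 held 39.5% and 28.8% and Muc2 4.51% and 2.03%. Zg16 and Muc2 thus form a larger part of the mixture in goblet progenitors than in secretory progenitors in both libraries, and Tff3 a smaller one.

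To ask how far the genes differ between progenitor and mature cells, UMIs were summed per library and type and fitted with edgeR over 18 sums of 9 epithelial types. In this comparison of goblet cells with goblet progenitors, 15.9% of 11013 genes were higher and 13.2% lower at an adjusted p under 0.05. Each SE was taken back from the test, as the size of the difference divided by the square root of its F statistic. Among the members, Clca1 rose, by 2.55 on the log2 scale (SE 0.54; edgeR adjusted p = 0.0076; 2.56 and 2.53 in the libraries taken singly). The other 7 had positive differences that did not pass: Zg16 2.84 (SE 1.83; edgeR adjusted p = 0.309), Fcgbp 2.22, Tff3 2.22, Muc2 1.96, Agr2 1.95, Spink4 1.90 and Muc13 0.76, with edgeR adjusted p from 0.0685 (Tff3) to 0.473 (Agr2). The members' median difference was 2.09 and that of all genes was 0.01. At an unadjusted p under 0.05, 3 members passed, as did 38.7% of all genes.

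The calls varied with the fit more than the differences did. With only goblet cells and goblet progenitors in the fit, the differences were close to these (Zg16 2.82, Agr2 1.98, Muc2 1.93) but the SE of Zg16 became 0.12 in place of 1.83 and that of Agr2 0.14 in place of 1.77, and 8 of 8 members passed (edgeR adjusted p = 1.1e-07 for Zg16 and 0.0186 for Muc13), as did 28.2% of all genes in that fit. That fit rests on 2 types in 2 libraries, with far fewer residual degrees of freedom than the 8 of the main fit and without its robust option. With all 9 types but no filter on low counts, the SE was 0.35 for Zg16 and 0.31 for Agr2, and 8 of 8 members and 3175 of all 17626 genes (18%) passed. The cause of these shifts was not tested. The Clca1 call itself was lost without the library term (adjusted p = 0.191) and with DESeq2 (adjusted p = 0.256), which called 24.8% of all genes and, among the members, Tff3 alone (adjusted p = 0.0144). In sums over a type, more transcripts per cell and more cells with the transcript cannot be told apart.

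**Figure D3:**
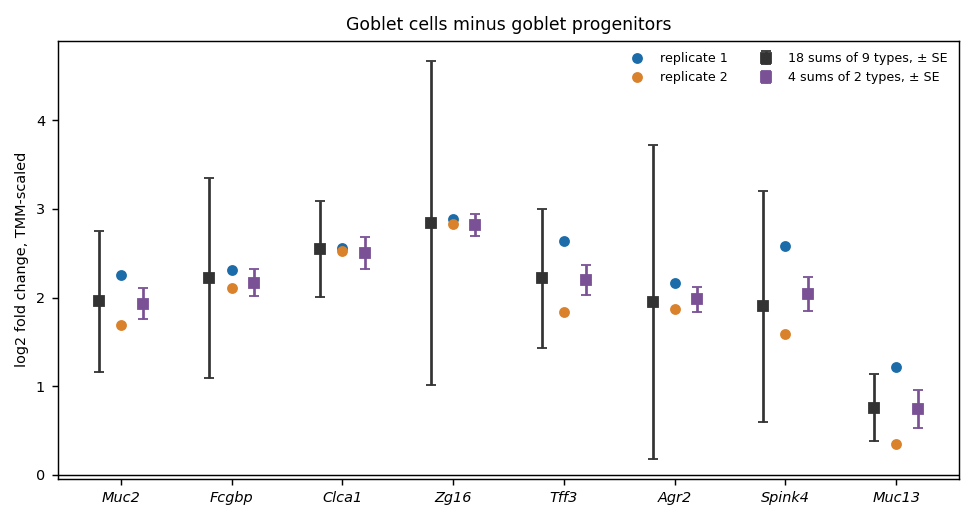
Difference between goblet cells and goblet progenitors on the log2 scale after TMM scaling, for each library (circles) and as fitted (squares) over all 9 epithelial types or over these 2 types alone. Bars on the squares are the SE taken back from the F statistic of each difference. Fitted differences lie between 0.75 and 2.84 in both fits, and the SE of the secreted genes is several times wider in the fit of all types.

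Depth and other markers also differed between these classes. Median depth was 28555 and 19683 UMIs per cell in goblet progenitors and 13649 and 15709 in goblet cells, and the median mitochondrial share was 8.21% and 4.84% against 5.78% and 3.05%. The summed level of 6 TA markers was 902 and 683 CPM in goblet progenitors and 60.8 and 77.3 CPM in goblet cells. Summed enterocyte markers stood at 374 and 142 CPM in goblet progenitors and 83.0 and 32.2 CPM in goblet cells, and summed Paneth markers at 259 and 2221 CPM against 5768 and 5451 CPM. Their part in the differences was not tested.

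At single-cell resolution, with each cell thinned to 5000 UMIs to equalise depth, the members fell into steady and variable ones. Agr2 was the steadiest in goblet cells, with a median of 158.5 and 133.5 UMIs per cell and a 10th to 90th percentile range of 84 to 227 and 65 to 201. Tff3 was nearly as steady, with medians of 198 and 316 and a range of 102 to 329 and 165 to 553. No goblet cell held 0 UMIs of either gene.

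Zg16 spread most widely in UMIs, and Clca1 relative to its mean, with a coefficient of variation in goblet cells of 1.44 and 1.23 against 1.01 and 1.01 for Zg16. The median of Zg16 in goblet cells was 337 UMIs in replicate 1 and 192 in replicate 2, its 10th and 90th percentiles were 3 and 918 in replicate 1 and 1 and 695 in replicate 2, and single cells ran from 0 to 2371 UMIs, the latter 47.4% of the cell's UMIs. Cells with fewer than 10 Zg16 UMIs were 13.8% of goblet cells in both libraries, against 43.2% and 38.1% of goblet progenitors. Among goblet progenitors 58 of 162 and 23 of 84 cells held none, while the 90th percentile was 225 and 154 UMIs. Goblet progenitors thus held cells with no Zg16 UMI beside cells with as many as 447 and 316.

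Clca1 was also uneven, at a lower level. The median goblet cell held 6 and 5 Clca1 UMIs of 5000, 58.3% and 72.5% of goblet cells held fewer than 10, and the highest cell held 128 and 52. Muc2 had medians of 43 and 17 UMIs in goblet cells and 11 and 7 in goblet progenitors. Fcgbp had 59.5 and 31 against 19.5 and 10.5, and Spink4 121 and 149 against 27.5 and 58.5. Muc13 had medians of 3 and 2 UMIs in goblet cells and 2 and 3 in goblet progenitors, so its order differed between the libraries.

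**Figure D4:**
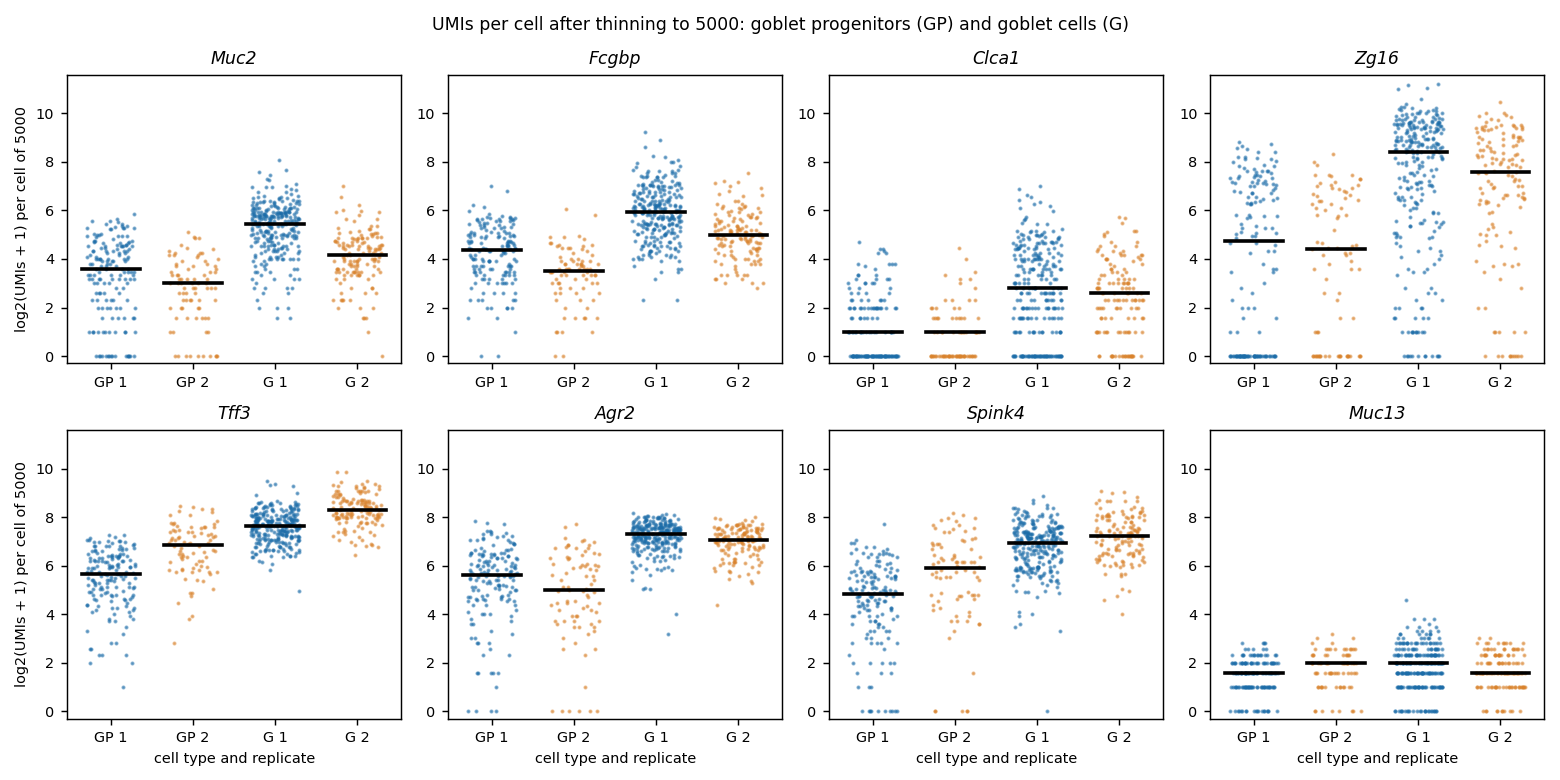
UMIs of each gene in single goblet progenitors (GP) and goblet cells (G) of replicates 1 and 2 after thinning to 5000 UMIs, on a log2(UMIs + 1) axis; black bars are medians. Zg16 and Clca1 spread from 0 upward in goblet cells, and Agr2 and Tff3 stay within a narrow band.

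Across goblet cells thinned to a fixed total, 5 secreted genes varied together and Agr2 did not rise with them, though the sign for Agr2 depended on the setting. Spearman's rho between pairs of Muc2, Fcgbp, Clca1, Zg16 and Tff3 ran from 0.58 to 0.88 over 276 goblet cells of replicate 1 and from 0.55 to 0.83 over 138 of replicate 2, highest for Zg16 with Tff3 in replicate 1 (0.88). For Agr2 with the other 6 secreted genes it ran from -0.27 to -0.09 in replicate 1 and from -0.04 to 0.11 in replicate 2. In goblet progenitors Agr2 varied with the others, at 0.21 to 0.79 and 0.17 to 0.65, most closely with Tff3 in both libraries (0.79 over 162 cells and 0.65 over 84 cells). Spink4 stood between them in goblet cells, at 0.00 to 0.42 and 0.08 to 0.50 with the 5 genes, and at 0.35 to 0.76 and 0.23 to 0.82 in goblet progenitors. Muc13, at a few UMIs per cell, gave -0.23 to 0.38 and -0.15 to 0.13 in goblet cells. Cells of a library share its free RNA and, at a fixed total, an abundant gene lowers the room of the rest. Read against the UMIs outside the 8 genes, a setting chosen after seeing the data, the 5 genes kept rho from 0.68 to 0.92 and from 0.66 to 0.88 in goblet cells, and Agr2 with the other 6 ran from -0.09 to 0.20 and from 0.14 to 0.34. With the 5 genes alone, Agr2 was then positive throughout, at 0.06 to 0.20 and 0.28 to 0.34, still below the values among the 5. In that setting Spink4 with the 5 genes ran from 0.16 to 0.54 and from 0.22 to 0.65 in goblet cells. Muc13 with the secreted genes ran from -0.07 to 0.65 and from 0.04 to 0.40, so its values depended on the setting. These correlations are descriptions of the cells of 2 mice and carry no test.

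**Figure D5:**
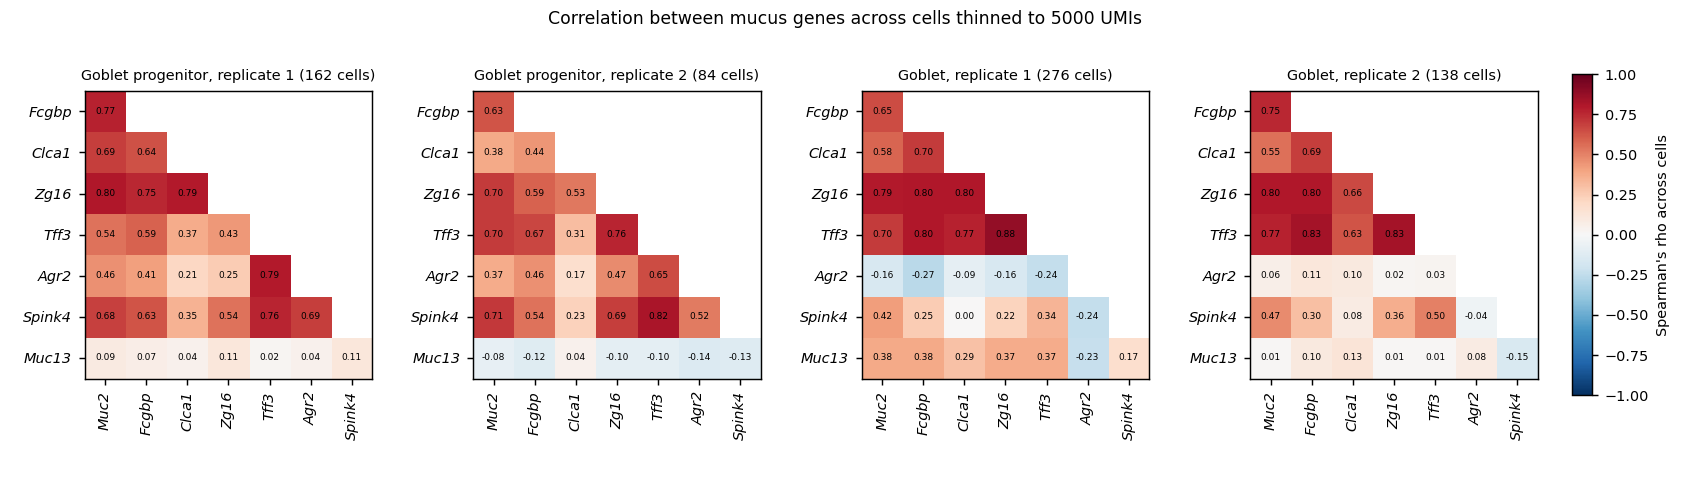
Spearman's rho between the 8 genes across single cells thinned to 5000 UMIs, in goblet progenitors and goblet cells of each library; red is positive and blue negative. Pairs of Agr2 with the other 6 secreted genes lie from -0.27 to 0.11 in goblet cells and from 0.17 to 0.79 in goblet progenitors. Read against the UMIs outside the 8 genes, which is not drawn, the pairs in goblet cells lie from -0.09 to 0.34.

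Goblet progenitors already carried the secreted genes far above stem cells. In this comparison 7.70% of genes were higher and 5.37% lower, and the 7 secreted members were among the higher ones. Both classes were named from the RNA of these cells, so these calls measure only how far the classes stand apart. Muc2 was higher by 6.98 on the log2 scale (SE 1.06; edgeR adjusted p = 0.0033), and Tff3 by 5.50 (SE 0.92; edgeR adjusted p = 0.00534), and Clca1 passed with an edgeR adjusted p of 0.000954. The libraries were far apart in size though not in direction. With replicate 1 alone, Muc2 differed by 6.07, Tff3 by 4.55, Clca1 by 6.32, Zg16 by 9.02, Agr2 by 7.50 and Spink4 by 7.46. With replicate 2 alone, Muc2 differed by 10.32, Tff3 by 6.92 and Spink4 by 12.18, where its stem cells held 1, 314 and 4 UMIs of these genes. The calls of Fcgbp, Zg16 and Agr2 were lost without the library term (adjusted p = 0.0856, 0.250 and 0.257), and that of Agr2 also under a stricter cell filter (0.117). Clca1, Zg16 and Agr2 stood at 6.17, 28.0 and 50.5 CPM in the stem cells of replicate 1 and at 0 UMIs in those of replicate 2, where, taking 3 counts as the floor, goblet progenitors were at least 201-fold, 5843-fold and 5295-fold higher. Such bounds cover counting error in the counts as deposited, and where free RNA had been subtracted they are no bounds. Muc13 was 1.02 higher (SE 0.39; edgeR adjusted p = 0.136), and it passed with only these types fitted (0.000231), with DESeq2 (0.0395), with no filter, after thinning and under the stricter cell filter. The median of the members was 7.07 and that of all genes -0.01.

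Secretory progenitors, cells of the secretory line not yet assigned to a fate, held some members and hardly any of others. These were few cells, 31 and 19. Tff3 stood there at 8424 and 18511 CPM, Agr2 at 3748 and 3240 CPM and Fcgbp at 2167 and 1981 CPM, all below the goblet progenitors of the same library. Muc2 stood at 174 and 138 CPM and Zg16 at 133 and 174 CPM, against 16372 and 10926 CPM of Zg16 in goblet progenitors. Of secretory progenitor cells, 90.3% (exact 95% interval 74.3 to 98.0) and 94.7% (74.0 to 99.9) had a UMI of Fcgbp, against 16.0% and 5.56% of intraepithelial lymphocytes, which should lack it. A Muc2 UMI was found in 41.9% (24.6 to 60.9) and 26.3% (9.15 to 51.2), and the first of these overlaps the 28.0% (16.2 to 42.5) of the lymphocytes of replicate 1, so that it was not read as expression. In enterocytes of replicate 1 the Muc2 share was 1.07%. Median depths were 13081 and 10628 UMIs in secretory progenitors and 4110 and 10226 in the lymphocytes.

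The edgeR comparison of goblet with secretory progenitors called 0 of 8 members, with 1.50% of genes higher and 2.01% lower. The largest differences were Zg16 at 6.48 (SE 2.27; edgeR adjusted p = 0.203) and Muc2 at 3.90 (SE 0.95; edgeR adjusted p = 0.0697), and the smallest were Tff3 at 0.34 and Fcgbp at 0.62. At an unadjusted p under 0.05, 4 members and 16.9% of all genes passed. DESeq2 called 1 member (Muc2, adjusted p = 0.0184) and 4.24% of all genes. In edgeR, 6 members and 3.85% of all genes passed with no filter, and 7 members and 9.90% of all genes with only these types in the fit. Tff3 passed in none of these fits. The members' median was 1.82 against 0.06 for all genes.

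Paneth cells, the other granule cells of the crypt, which secrete antimicrobial peptides, held Spink4 above the other members. In the counts as deposited they held few or no UMIs of Zg16, Fcgbp and Clca1. Spink4 stood at 7726 and 7714 CPM, 28.9% and 22.5% of the goblet level of each library. Muc2 stood at 725 and 251 CPM, Tff3 at 791 and 1694 CPM and Agr2 at 541 and 517 CPM. Against these, Zg16 held 0 UMIs in the 3515066 and 4363692 UMIs of Paneth cells, and goblet cells were at least 97805-fold and 83566-fold higher in CPM by the floor of 3 counts, for the counts as deposited and with the limit given above on subtracted RNA. Fcgbp and Clca1 held 0 UMIs in replicate 1, and 19.0 and 1.38 CPM in replicate 2. Spink4 made up 79.0% and 75.7% of the secreted UMIs of Paneth cells, against 12.6% and 17.2% in goblet cells of the same libraries. The median Paneth cell held 344.5 and 577 Spink4 UMIs, against 332 and 512 in goblet cells. Median depths were 44684 and 80820 UMIs against 13649 and 15709. After TMM scaling, Paneth minus goblet cells gave -1.04 for Muc2 (edgeR adjusted p = 0.439) and -2.69 for Tff3 (edgeR adjusted p = 0.0504). Agr2 gave -2.85 (edgeR adjusted p = 0.356), and none of these 3 genes passed.

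In edgeR, with 8.89% of genes higher and 9.88% lower in Paneth than in goblet cells, Fcgbp (edgeR adjusted p = 0.0113), Clca1 (edgeR adjusted p = 0.000328) and Zg16 (edgeR adjusted p = 0.0176) were lower. Fitted sizes are not given for them, since Paneth cells of replicate 1 held 0 UMIs of all 3 genes. In replicate 2 alone, with 83 and 6 UMIs in Paneth cells, Fcgbp differed by -5.68 and Clca1 by -7.15. The Zg16 call was lost without the library term (adjusted p = 0.0663) and under the stricter cell filter (0.0789), and so was Fcgbp under the filter (0.197), which left too few Paneth cells in replicate 1 for a sum, so that replicate 2 alone gave the Paneth value. The direction of Spink4 depended on the scale: it was 0.85 higher in Paneth cells after TMM scaling (edgeR adjusted p = 0.726) and -2.0 without it. Muc13 turned in the same way, from 0.63 to -2.14, and to -0.35 under the stricter filter. Paneth TMM factors were 0.156 and 0.121, and without them the median of all genes was -2.79. The members' median was -2.77, the same with Zg16 at its bound, against -0.02 for all genes. Paneth and goblet classes were likewise named from the RNA of these cells, which limits these calls in the same way.

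In enterocytes, a few cells carried nearly all of the secreted transcripts: 5 of 931 and 4 of 382 cells held 90% of the UMIs of the 7 genes, and the median enterocyte held none. In EEC (enteroendocrine cells) 11 of 54 and 4 of 20 cells did, whereas in intraepithelial lymphocytes (IEL) of replicate 1 the same share was spread over 34 of 50 cells. Without the 5 and 3 enterocytes in which the 7 genes made up 1% or more of the UMIs, a level set after the values were seen, Zg16 went from 186 and 177 CPM to 5.74 CPM and 0 UMIs, and Clca1 from 19.7 and 21.3 CPM to 3.08 and 2.45 CPM. Since such cells were picked by these same genes, a fall was fixed in advance. In EEC of replicate 1, removal of 7 of 54 such cells took Agr2 from 2232 to 428 CPM and Muc2 from 305 to 9.77 CPM. Tff3 stayed higher in the cells that remained, at 1319 and 810 CPM in EEC and 869 and 746 CPM in tuft cells, against 4.33 and 23.7 CPM in enterocytes. Doublets had been removed by the authors with scDblFinder before deposit, and no further caller was run.

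IEL, which should lack the secreted genes, gave the background for shares of cells. In replicate 1, 39 of 50 IEL (78.0%, exact 95% interval 64.0 to 88.5) had a Zg16 UMI at a median depth of 4110 UMIs and 14 of 50 (28.0%) a Muc2 UMI, while in replicate 2 0 of 18 IEL had either (exact 95% interval up to 18.5%). Of goblet progenitors, 69.1% (61.4 to 76.2) had a Zg16 UMI in replicate 1, no more than the IEL of that library, so that this share was not read as expression. After thinning, the shares were 64.2% (56.3 to 71.6) of 162 goblet progenitors and 27.3% (6.02 to 61.0) of the 11 IEL that remained. The levels lay further apart, at 476 CPM in IEL and 16372 CPM in goblet progenitors of replicate 1. Muc2 was found in 92.0% (86.7 to 95.7) and 90.5% (82.1 to 95.8) of goblet progenitors and in 277 of 277 and 138 of 138 goblet cells. In the other types of replicate 1, Zg16 stood at 846 CPM in tuft cells and 561 CPM in EEC, and at 0 UMIs in both types in replicate 2. After thinning, the Muc2 shares of goblet progenitors were 90.1% and 88.1%.

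Muc13, the membrane-bound member, had another pattern. It stood at 693 and 512 CPM in enterocytes, 657 and 533 CPM in goblet cells, 409 and 566 CPM in goblet progenitors and 365 and 525 CPM in tuft cells, and these neighbours overlap in the order of types. EEC, TA cells, secretory progenitors and stem cells lay between 219 and 330 CPM. Paneth cells held 205 and 71.3 CPM and IEL 49.5 and 4.44 CPM. After TMM scaling Muc13 stood at 1310 and 587 CPM in Paneth cells, above every other epithelial type of the same library. The place of Paneth cells in the order thus depended on the scale. From TA cells to enterocytes, where 29.2% of genes were higher and 22.5% lower, Muc13 rose by 1.43 on the log2 scale (SE 0.38; edgeR adjusted p = 0.0116), and the call was lost without TMM factors (1.01, adjusted p = 0.0577), which lowered the median of all genes to -0.35. Clca1 was the other member called there (3.62; SE 0.78; edgeR adjusted p = 0.00412). Its UMIs came from 24 of 931 and 13 of 382 enterocytes. Without the 5 and 3 cells left out above, Clca1 was at 3.08 and 2.45 CPM in enterocytes, against 4.15 CPM and 0 UMIs in all TA cells. Those cells were picked by the secreted genes, Clca1 among them, so no conclusion is drawn from this order. The call was lost without the library term (adjusted p = 0.0514) and under the stricter cell filter (0.434). The members' median was 1.33 and that of all genes 0.06.

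Genes around the mucus products differed between goblet cells and goblet progenitors in the same fit, with log2 differences after TMM scaling. Without TMM factors the median of all genes moved from 0.01 to -0.49, and the share of higher genes among those called went from 54.7% to 15.8%. Among 9 tested of 16 other secreted goblet products, 6 rose, 0 fell and 3 did not pass, and their median difference was 2.21. Sval1 rose by 2.94 (SE 0.38; edgeR adjusted p = 1.7e-06), Ccl6, a chemokine, by 2.86 (SE 0.84) and Klk1, a kallikrein protease, by 2.35 (SE 0.45). Ccl6 was also abundant in Paneth cells, at 1189 and 1030 CPM against 1211 and 1676 CPM in goblet cells, and Paneth markers were higher in goblet cells than in goblet progenitors, as given above. DESeq2 called 3 of these 9, and so did edgeR without the library term.

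Of the 3 transmembrane mucins tested of 8 listed, 1 rose and 2 fell, and 0 were called without the library term. Muc3a rose by 1.70 (SE 0.35), at 62.7 and 42.6 CPM in goblet progenitors and 173 and 74.7 CPM in goblet cells. Muc3 fell by 1.35 (SE 0.30) on the log2 scale, from 54.5 and 56.4 CPM to 15.9 and 14.7 CPM, and Muc4 fell by 1.95 (SE 0.46). Enterocytes held Muc3 at 229 and 287 CPM, above both goblet classes, and enterocyte markers were lower in goblet cells than in goblet progenitors. Muc3 and Muc3a are related neighbours on chr5, and reads shared between them could have been assigned to either, so both are uncertain.

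The enzymes that build mucin O-glycans were higher in goblet cells in most cases. Of 18 tested of 22, 13 rose, 1 fell and 4 did not pass, with a median of 1.34. Without TMM factors 9 rose, and without the library term 7 did. Chst4, a sulfotransferase of O-glycans, rose by 2.55 (SE 0.22; edgeR adjusted p = 1.3e-09), from 34.1 and 19.8 CPM to 124 and 104 CPM. Galnt5, which adds the first sugar, rose by 1.87 (SE 0.30). Gcnt4, a branching enzyme, fell, with 49 and 6 UMIs in goblet progenitors and 0 and 1 in goblet cells (edgeR adjusted p = 0.000287), too few for a fold. Enterocytes held Gcnt4 at 21.2 and 32.3 CPM.

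Transcription factors of the goblet line rose in 9 of 10 cases and Foxa2 did not pass, at 0.55 (edgeR adjusted p = 0.0838). Foxa3, a forkhead factor, rose by 2.00 (SE 0.23), from 87.5 and 86.4 CPM to 259 and 233 CPM. Creb3l4, a membrane-bound factor of secretory cells, rose by 1.90 (SE 0.24), and Atoh1, the factor that sets the secretory fate, rose by 1.83 (SE 0.20). The count was the same without TMM factors and with DESeq2.

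Protein folding in the endoplasmic reticulum followed, with 20 of 23 genes higher, 0 lower and 3 not past the test, and a median of 1.34. Kdelr3, a receptor that returns proteins to the reticulum, rose by 2.25 (SE 0.21), Dnajb9, a chaperone partner, by 1.95 (SE 0.22) and Tmed3, a cargo protein of transport vesicles, by 1.83 (SE 0.16). Granule exocytosis genes rose in 12 of 13 cases and fell in 1, and 6 rose without TMM factors or without the library term. Among the 12, Sytl4 went opposite ways in the libraries taken singly, at 1.77 in replicate 1 and -0.20 in replicate 2. Rab27a and Syt7, which act in granule docking and calcium-triggered release, rose by 2.40 (SE 0.30) and 1.90 (SE 0.25). Nlrp6, an innate immune sensor, fell by 2.63 (SE 0.57) on the log2 scale, from 89.9 and 79.2 CPM to 4.76 and 17.0 CPM. It was higher in enterocytes, at 259 and 221 CPM, and the part of the enterocyte markers in the fall of Nlrp6, Muc3 and Gcnt4 was not tested. For all 6 lists 15.9% of genes higher and 13.2% lower is the background. Spdef, Creb3l1, Galnt12, Ern2 and Sytl2 in these lists are also among the goblet markers with which the annotation was checked.

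Between Paneth and goblet cells the same lists split. Of the folding genes 5 were higher in Paneth cells, 14 were lower and 4 did not pass, with Ero1lb higher by 2.65 (SE 0.38) and Pdia4 lower, at -2.18 (SE 0.28). Of the 18 O-glycan genes 2 were higher and 7 lower, among the latter Chst4 (edgeR adjusted p = 2.1e-10), with 1 and 0 UMIs in Paneth cells, too few for a fold. Of 10 transcription factors 0 were higher and 5 lower, among them Klf4 at -2.13 (SE 0.26). Of 13 exocytosis genes 1 was higher and 2 were lower, of the 9 other secreted products 1 was higher (Ang4, also a Paneth marker) and 3 were lower, and of 3 transmembrane mucins 0 passed. These log2 differences rest on the TMM scale. Without TMM factors 0 folding genes were higher and 22 lower, 0 O-glycan genes higher and 15 lower, 0 transcription factors higher and 10 lower, 0 exocytosis genes higher and 12 lower, 1 secreted product higher and 7 lower, and 0 transmembrane mucins higher and 3 lower.

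Over the 18 epithelial sums, the genes whose log2 CPM was most like a member's were ranked by Pearson's r, leaving out the members themselves. The nearest to Muc2 were Galnt7 (0.962), Bace2 (0.939) and Capn9 (0.939). Those of Tff3 were Gcnt3 (0.963), Galnt12 (0.950) and Ern2 (0.945), those of Agr2 were Atoh1 (0.945), Creb3l4 (0.936) and Tpsg1 (0.930), and those of Spink4 were Creb3l4 (0.975), Mlph (0.951) and Rep15 (0.950). Zg16 was nearest to S100a6 (0.908), Chst4 (0.864) and Lpcat2 (0.855). Fcgbp and Clca1 were nearer to each other (0.930) than to any other gene, and C2cd4a and Rnf39 were among the 3 nearest non-members of both. The others were Rasd2 (0.846) for Fcgbp and AW112010 (0.878) for Clca1. Muc13 was nearest to Clptm1l (0.929), Hint3 (0.920) and Lamtor2 (0.913), and its r with the secreted members ran from -0.07 (Fcgbp) to 0.66 (Muc2). The sums share library, depth and annotation, and no test was made.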

How the data were processed

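Jejunal crypt cells of 2 male 375KO mice were profiled by droplet-based single-cell RNA-seq, with 1 library per mouse. The authors aligned reads with Cell Ranger 3.0.1 to mm10 and deposited matrices of UMI counts per gene and cell, whole numbers that are not normalized. They also deposited the mitochondrial percent of each cell and cluster names made in Seurat (3.2.1 per the labels), after removing cells with few genes or high mitochondrial share. They name SoupX for free RNA, but not for which matrix. The annotation was joined by cell order to the count table of the whole study, where 3275 of 3275 cells matched exactly in UMI total, gene number and sample, and by barcode to the matrix of each library, which was used for all values and whose cell totals differ from that table by at most 262 UMIs. The 2937 cell columns of another series in each table of the whole study were not used.

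UMI counts were summed per library and type, with at least 10 cells a sum. Genes were filtered with filterByExpr, scaled by TMM and tested in edgeR 4.0.16 (R 4.3.3; quasi-likelihood), with cell type and library as terms (18 sums, 11013 genes, 8 residual degrees of freedom); DESeq2 1.42.0 was an alternative. The library is a term because each library is 1 mouse, which pairs its sums. Tests were two-sided, with Benjamini-Hochberg adjustment over all genes and a threshold of 0.05. The SE of an edgeR difference is its absolute size over the square root of the quasi-likelihood F statistic, not a separately fitted standard error. Log2 differences per library used a prior count of 2. Levels are CPM with exact Poisson 95% intervals and shares carry Clopper-Pearson 95% intervals; both cover counting error only. A count of 0 was read as allowing 3 counts. Cells were thinned to 5000 UMIs where stated. The stricter cell filter asked for at least 2500 genes and at most 10% mitochondrial reads. The edgeR script was tested on simulated data.

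The 8 genes, the lists and the tests were chosen with earlier results of these data known. Genes named are the 8 members, up to 3 genes of each list with the largest change past the threshold between goblet cells and goblet progenitors, and the 3 genes most like each member over the 18 sums. Markers, the further genes Foxa2, Ang4 and Sytl4 and those given for Paneth cells were named after their values were seen.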

Additional observations from a re-analysis of the deposited data

Results flagged for a closer look

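Barcodes that the authors did not keep also held the 8 genes, and no comparison uses these barcodes. In replicate 1, 5583 such barcodes, with a median of 1581 UMIs, held the 8 genes at 2.06% of their UMIs, Zg16 at 7094 CPM and Muc2 at 1324 CPM. In replicate 2, 58 such barcodes, with a median of 19375 UMIs, held them at 4.09%, Tff3 at 12205 CPM and Spink4 at 17811 CPM. Groups of 2 libraries are too small for a search for outlying libraries.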

How the results depend on the processing

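Genes past the threshold moved by over 1.5 times in these cases. Without the replicate block (the library term that pairs the sums of a mouse) the counts were 1043 in place of 3200 for goblet cells minus goblet progenitors, 303 in place of 1439 for goblet progenitors minus stem cells, 41 in place of 386 for goblet minus secretory progenitors, 837 in place of 2067 for Paneth minus goblet cells and 2848 in place of 5692 for enterocytes minus TA cells. After thinning, the counts for goblet cells minus goblet progenitors, goblet progenitors minus stem cells and Paneth minus goblet cells were 1665, 870 and 693. Goblet minus secretory progenitors gave 678 with no filter and 782 with only these types, and Paneth minus goblet cells gave 9517 without TMM factors and 805 under the stricter cell filter. Where the scaling moved the split of calls, higher genes were 76.7% in place of 58.9% (goblet progenitors minus stem cells, no TMM), 27.6% in place of 42.8% (goblet minus secretory progenitors, DESeq2), 0.925% in place of 47.4% (Paneth minus goblet cells, no TMM) and 30.3% in place of 56.4% (enterocytes minus TA cells, no TMM). Of the members, Spink4 and Muc13 in Paneth minus goblet cells turned to -2.0 and -2.14 without TMM factors and Muc13 to -0.35 under the stricter filter. In enterocytes minus TA cells, Fcgbp (-1.40) and Zg16 (-2.04) turned under the stricter filter, Tff3 without the replicate block (0.12) and after thinning (0.18), and, with 1 library left out, Tff3 ranged from -1.87 to 0.72, Agr2 from -4.56 to 0 and Spink4 from -0.81 to 2.54. The cause was not tested. Of 360 tested values of members under an alternative, 286 kept direction and side of the threshold, 55 passed in addition, 12 no longer passed and 7 turned. With 1 library left out no degrees of freedom remain; of 80 such values with no test, 66 moved by less than the spread of the libraries, 11 by more and 3 turned. Of the levels, 146 stayed within the spread of the libraries and 46 did not, 37 of them without cells of 1% or more, a setting added after seeing the data, as were correlations over UMIs outside the 8 genes. The cells of 1% or more were picked by the secreted genes themselves. The 8 residual degrees of freedom come from 2 mice and from 1 spread per gene shared by all types, and sums of 19 and 31 secretory progenitors limit that comparison.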
